A study of Homo sapiens with 10 samples.

Results

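The hypoxia response genes examined here are 10 genes chosen by name: HIF1A, EGLN3, SLC2A1, HK2, PGK1, LDHA, PDK1, BNIP3, CA9 and VEGFA. They are 10 of the 20098 coding genes annotated outside chromosome Y and the mitochondrial genome. For each gene, the ChIP-seq peaks of both deposited lists, ZMYND8 and FLAG-ZMYND8, were counted, placed and sized around the transcription start site (TSS), in the gene body and within 20 kb. The study mapped ZMYND8, a chromatin reader with PHD, bromodomain and PWWP modules, in HEK293, an established human embryonic kidney cell line. The 10 samples are 2 ZMYND8, 2 FLAG-ZMYND8, 2 H3K14ac and 2 H3K27ac ChIP samples and 2 samples of input DNA. In the ZMYND8 samples an antibody against the protein itself was used, and the labels describe the cells as a Flp-In T-REx HEK293 line that stably expresses 3xFLAG-ZMYND8 or its N228F mutant, without saying which of these each sample was. In the FLAG-ZMYND8 samples an anti-FLAG antibody was used on Flp-In T-REx HEK293 cells in which full-length 3xFLAG-ZMYND8 was overexpressed with 10 nM doxycycline. Chromatin of both kinds was cross-linked and cut with MNase. No low-oxygen treatment is named in the labels, so all values describe HEK293 cells without stated hypoxia.

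In the hypoxia response, cells adjust to low oxygen through the hypoxia-inducible factors (HIFs). When oxygen is present, prolyl hydroxylases mark the HIF alpha subunit for destruction through VHL. When oxygen is short, the alpha subunit escapes, pairs with ARNT and binds hypoxia response elements (HREs), whose core is written ACGTG or GCGTG, to switch on genes of glucose uptake, glycolysis, mitochondrial restraint, acid removal and vessel growth. ZMYND8 has been described elsewhere as a cofactor of HIF in breast cancer cells.

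The ZMYND8 list held 15086 peaks and the FLAG-ZMYND8 list held 63690. Each target had 1 peak list, in which the samples are not told apart, so no value below has a replicate error and no difference was tested against replicate spread. Read depth behind the peaks is unknown because the lists carry no counts. Their score was 1 in every row, so the size of a peak here is its width. The antibody and the length of the list differ between the 2 targets. The amount of ZMYND8 may differ too but is not given, nor is it given whether the ZMYND8 samples carried the N228F mutant. The parts of all these in any difference between the lists cannot be told apart.

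Peaks were assigned to a start if centred no more than 3 kb away. At the 5′ end of the annotated gene, 5 of the 10 genes had a ZMYND8 peak (34.1% of all coding genes did): EGLN3, SLC2A1, HK2, LDHA and PDK1. The same 5 genes and HIF1A and VEGFA, 7 in all, had a FLAG-ZMYND8 peak (58.1% of all coding genes). PGK1, BNIP3 and CA9 had neither, 3 of 10 genes against 37.2% of all coding genes. Peaks of both lists stood at 5 genes (29.4%), and they overlapped by at least 1 bp at 4 (20.4%), all of these but SLC2A1. The annotated 5′ ends of EGLN3 and PGK1 belong to long transcripts beginning 511700 and 193509 bp upstream of the canonical transcript, the main transcript in the annotation, so the start of the canonical transcript was used as well. From the canonical starts, 4 of 10 genes had a ZMYND8 peak (35.2% of all coding genes), since EGLN3 no longer counted, and 7 of 10 had a FLAG-ZMYND8 peak (59.6%), with 3 again at neither (35.6%) and 3 with overlapping peaks (21.1%). Distances below are from the midpoint of a peak to the canonical start, with minus signs upstream.

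Every one of the 4 genes with a ZMYND8 peak at the canonical start also had a FLAG-ZMYND8 peak there (both lists: 30.4% of all coding genes), and none had a ZMYND8 peak alone (4.82%). HIF1A, EGLN3 and VEGFA, 3 of 10, had FLAG-ZMYND8 alone (29.2%). The promoters of the 10 genes were rich in G and C: from 250 bases before to 50 after the canonical start, the median GC content was 71.0%, against 63.7% over all coding genes, and all 10 genes lay at or above 60%. Among the coding genes at or above 60%, 45.1% had a peak of the ZMYND8 list, 75.1% one of the FLAG-ZMYND8 list and 39.5% both. The 4, 7 and 4 genes of 10 counted here lay near those shares, as the bars by gene set show, so the number of genes with a peak is no result about the hypoxia response genes.

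**Figure D1:**
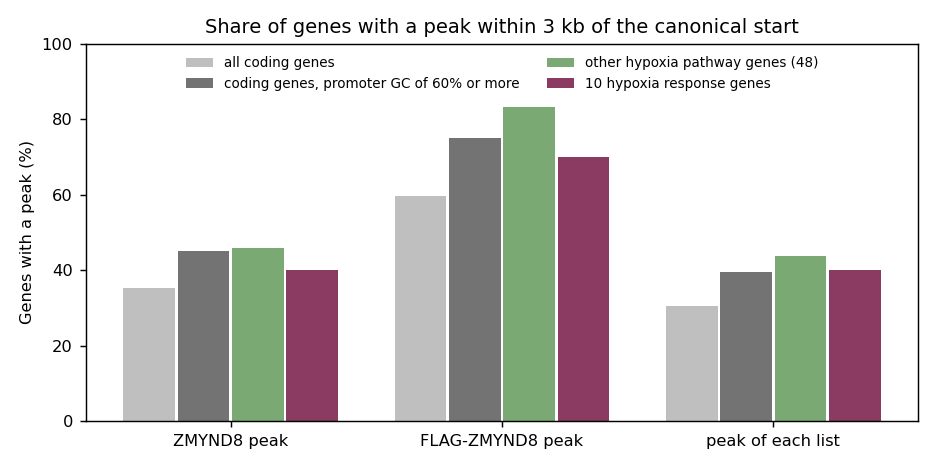
Bars give the percent of genes (y axis) with a ZMYND8 peak, a FLAG-ZMYND8 peak or a peak of each list within 3 kb of the canonical start (x axis), for all coding genes, coding genes with at least 60% GC around the start, 48 other hypoxia pathway genes and the 10 hypoxia response genes. For ZMYND8 the 10 genes, 4 of which had a peak, stand between all coding genes (35.2%) and the GC-rich ones (45.1%).

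The factor itself, HIF1A, encodes the oxygen-controlled alpha subunit of HIF-1 (ENSG00000100644.17, chr14:62162231-62214977, plus strand, hg19). It had no ZMYND8 peak within 20 kb of its start, and the nearest lay 55768 bp downstream, beyond the end of the gene. FLAG-ZMYND8 had 2 peaks at the start. The first, of 309 bp, lay at -444 bp (chr14:62161633-62161941) and the second, of 1023 bp, at +463 bp (chr14:62162183-62163205), over the start and the first intron. The start of the antisense RNA HIF1A-AS1 lies 379 bp downstream of that of HIF1A, inside the second peak. Together they covered 1332 bp of the 6001 bp window, and 5.55% of all coding genes had as much covered by FLAG-ZMYND8. Further FLAG-ZMYND8 peaks lay in introns at +13594 bp (228 bp wide) and at +28845, +32326 and +47124 bp, these 3 at 167 bp, the minimum width of the FLAG-ZMYND8 list.

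EGLN3 encodes the prolyl hydroxylase PHD3, one of the oxygen sensors that hydroxylate HIF alpha (ENSG00000129521.15, chr14:34393433-34931980, minus strand). At its canonical start there was a single FLAG-ZMYND8 peak of 1310 bp (chr14:34418984-34420293), which ran from -13 to +1296 bp, over the first coding exon, and was the 480th widest of the list's 63690. There was no ZMYND8 peak there. Farther inside the canonical transcript, FLAG-ZMYND8 had intronic peaks at +3208 bp (167 bp wide), +11687 bp (302 bp) and +12660 bp (448 bp). The whole annotated gene held 16 FLAG-ZMYND8 peaks and 4 ZMYND8 peaks, and each of these 4 overlapped a FLAG-ZMYND8 peak. The ZMYND8 peak that placed EGLN3 among the 5 genes above was 151 bp wide, the minimum width of that list, and overlapped a FLAG-ZMYND8 peak of 252 bp, but both lay near the far 5′ end of the long transcript and only 390 and 391 bp from the start of the neighbour SPTSSA. The widest overlap of both lists in the gene was inside an intron of the long transcript, 109345 bp upstream of the canonical start: a ZMYND8 peak of 908 bp (chr14:34529172-34530079) lay wholly inside a FLAG-ZMYND8 peak of 957 bp. Its GC content was 68.0% and it held 8 HRE cores. The FLAG-ZMYND8 peak at the canonical start is shown in part below, with the single CACGTG of this stretch, which reads ACGTG on either strand, in capitals. The stretch is chr14:34419515-34419788, minus strand, 274 bases of coding exon and intron from 492 to 765 bp downstream of the start.
EGLN3 FLAG-ZMYND8 peak: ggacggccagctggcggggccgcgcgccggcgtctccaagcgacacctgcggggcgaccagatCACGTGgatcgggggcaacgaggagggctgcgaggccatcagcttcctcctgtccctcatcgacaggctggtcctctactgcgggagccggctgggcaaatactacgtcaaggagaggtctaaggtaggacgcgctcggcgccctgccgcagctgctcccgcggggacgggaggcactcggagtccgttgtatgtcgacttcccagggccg

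Glucose enters the cell through GLUT1, encoded by SLC2A1 (ENSG00000117394.24, chr1:43391024-43424564, minus strand). It was the only one of the 4 genes with peaks of both lists at the canonical start where the lists did not overlap. ZMYND8 had a 251 bp peak at -215 bp (chr1:43424629-43424879), centred 5 bp from the start of the divergent noncoding gene SLC2A1-DT, and a 200 bp peak in the first intron at +1527 bp (chr1:43422913-43423112). FLAG-ZMYND8 had 1 peak of the minimum width at +48 bp (chr1:43424408-43424574). ZMYND8 covered 451 bp of the window, and 10.8% of all coding genes had as much, whereas the 167 bp covered by FLAG-ZMYND8 were matched by 59.6%. Elsewhere in the gene ZMYND8 had a peak at +5165 bp, and FLAG-ZMYND8 had peaks at +13963, +19187, +20540 and +27889 bp, of which only the last, at 617 bp, was wider than the minimum. The whole upstream ZMYND8 peak is printed here because it held no HRE core on either strand.
SLC2A1 ZMYND8 peak: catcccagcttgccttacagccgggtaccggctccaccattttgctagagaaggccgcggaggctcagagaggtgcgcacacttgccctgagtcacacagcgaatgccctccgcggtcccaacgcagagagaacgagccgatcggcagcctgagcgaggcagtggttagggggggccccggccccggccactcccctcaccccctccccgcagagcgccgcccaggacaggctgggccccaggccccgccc

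**Figure D2:**
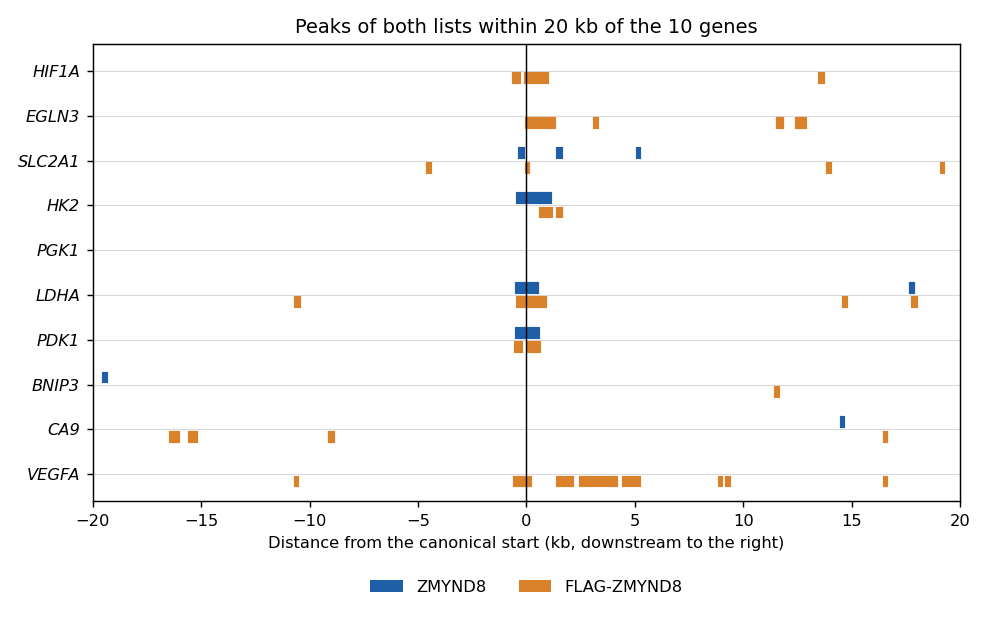
Peaks of ZMYND8 (blue) and FLAG-ZMYND8 (orange) are drawn by their distance from the canonical start in kb (x axis, downstream to the right, line at the start) for each of the 10 genes (rows), with narrow peaks slightly thickened by their outline. Both colours sit over or beside the start of SLC2A1, HK2, LDHA and PDK1, FLAG-ZMYND8 alone at HIF1A, EGLN3 and VEGFA, and neither at PGK1, BNIP3 and CA9.

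Of the 3 glycolytic enzymes, HK2 and LDHA had among the wider ZMYND8 peaks of the list and PGK1 had none. HK2 encodes hexokinase 2, which phosphorylates glucose in the first step of glycolysis (ENSG00000159399.10, chr2:75061254-75120486, plus strand). Its ZMYND8 peak of 1583 bp (chr2:75060827-75062409) ran from -427 to +1155 bp and was the 260th widest of 15086, and 1.04% of all coding genes had as many bases covered by ZMYND8. The start of the noncoding gene HK2-DT, 140 bp upstream of that of HK2, also lay inside this peak. FLAG-ZMYND8 did not cover the start: its peaks of 540 bp at +898 bp (chr2:75061883-75062422) and of 254 bp at +1519 bp (chr2:75062647-75062900) lay in the first intron. They covered 794 bp, and 17.3% of all coding genes had as much. The 2 lists had 527 bp in common at HK2, 33.3% of the bases covered by ZMYND8 and 66.4% of those covered by FLAG-ZMYND8. Minimum-width FLAG-ZMYND8 peaks followed at +28304 and +42153 bp. The ZMYND8 peak held 16 HRE cores and the overlapping FLAG-ZMYND8 peak 7. Below are the 250 bases before the start (chr2:75061004-75061253, plus strand), where only ZMYND8 had a peak, and the intronic stretch from 749 to 1042 bp downstream (chr2:75062003-75062296, plus strand), where both did, with HRE cores in capitals.
HK2 before the start: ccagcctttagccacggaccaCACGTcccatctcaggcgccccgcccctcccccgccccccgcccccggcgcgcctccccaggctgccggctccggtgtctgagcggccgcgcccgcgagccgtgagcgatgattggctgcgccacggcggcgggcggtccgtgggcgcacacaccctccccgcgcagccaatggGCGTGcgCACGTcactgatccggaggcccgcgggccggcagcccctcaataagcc
HK2 first intron: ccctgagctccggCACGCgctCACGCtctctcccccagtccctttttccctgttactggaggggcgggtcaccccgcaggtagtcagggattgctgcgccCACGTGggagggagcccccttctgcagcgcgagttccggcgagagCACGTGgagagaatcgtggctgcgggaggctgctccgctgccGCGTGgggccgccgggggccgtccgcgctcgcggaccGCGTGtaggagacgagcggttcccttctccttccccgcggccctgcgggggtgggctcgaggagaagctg
The first stretch held 3 HRE cores and the second 6, of which 2 were the palindrome CACGTG.

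LDHA encodes the A subunit of lactate dehydrogenase, which turns pyruvate into lactate (ENSG00000134333.15, chr11:18416107-18429972, plus strand). The ZMYND8 peak of 1024 bp (chr11:18415642-18416665, centred at +43 bp) and the FLAG-ZMYND8 peak of 1330 bp (chr11:18415683-18417012, centred at +237 bp) had 983 bp in common, 96.0% of the bases of the first and 73.9% of those of the second. They ranked 790th and 459th by width in their lists, and 3.32% and 5.58% of all coding genes had as many bases covered. Each held 8 HRE cores. The 247 bases from 250 to 4 bp before the start lay inside both peaks (chr11:18415860-18416106, plus strand).
LDHA before the start: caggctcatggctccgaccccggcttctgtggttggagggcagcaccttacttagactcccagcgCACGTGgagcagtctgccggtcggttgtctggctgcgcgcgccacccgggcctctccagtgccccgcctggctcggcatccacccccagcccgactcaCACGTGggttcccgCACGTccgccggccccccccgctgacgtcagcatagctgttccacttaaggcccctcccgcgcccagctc
This stretch held 3 HRE cores, 2 of them CACGTG. Another overlapping pair, ZMYND8 of 188 bp and FLAG-ZMYND8 of 209 bp with 72 bp in common, lay near 18 kb downstream of the LDHA start, but it was centred 19 and 146 bp from the start of the neighbouring gene LDHC.

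PGK1 encodes phosphoglycerate kinase 1, an ATP-forming step of glycolysis, and is the one gene of the 10 on chromosome X (ENSG00000102144.15, chrX:77166236-77384792, plus strand). Neither list had a peak within 20 kb of its canonical start or anywhere in the gene. The nearest FLAG-ZMYND8 peak lay 64512 bp downstream of the start, and the nearest ZMYND8 peak 392503 bp upstream. Peaks were sparser on chromosome X as a whole, where 17.6% of coding genes had a ZMYND8 and 26.8% a FLAG-ZMYND8 peak at the canonical start, against 36.0% and 61.1% on the autosomes. The part of the chromosome in the absence at PGK1 was not tested. The PGK1 promoter held 4 HRE cores in its 300 bases, and the 3 before the start are marked in chrX:77359495-77359744, plus strand, shown as a stretch with cores and no peak.
PGK1 before the start: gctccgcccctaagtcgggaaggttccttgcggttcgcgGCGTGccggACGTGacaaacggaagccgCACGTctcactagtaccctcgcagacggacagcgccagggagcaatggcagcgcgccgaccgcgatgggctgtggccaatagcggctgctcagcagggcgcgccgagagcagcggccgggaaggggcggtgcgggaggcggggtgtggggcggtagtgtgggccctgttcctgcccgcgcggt

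PDK1 encodes pyruvate dehydrogenase kinase 1, a mitochondrial enzyme that inhibits pyruvate dehydrogenase (ENSG00000152256.14, chr2:173420101-173473397, plus strand). A ZMYND8 peak of 1055 bp (chr2:173420343-173421397, +52 bp, 743rd by width) spanned the start. FLAG-ZMYND8 had a peak on each side of the start and none over it: 357 bp at -363 bp (chr2:173420277-173420633) and 564 bp at +336 bp (chr2:173420873-173421436), whose midpoint lies 103 bp from the start of the antisense gene PDK1-AS1. The ZMYND8 peak overlapped the upstream one by 291 bp and the downstream one by 525 bp, so that 77.3% of the bases covered by ZMYND8 were also covered by FLAG-ZMYND8, and 88.6% the other way round. As many bases were covered by ZMYND8 in 3.13% and by FLAG-ZMYND8 in 13.4% of all coding genes. No other peak of either list lay within 20 kb of the start. The shared stretch of the upstream FLAG-ZMYND8 peak from 370 to 213 bp before the start (chr2:173420448-173420605, plus strand) held 2 HRE cores.
PDK1 shared upstream stretch: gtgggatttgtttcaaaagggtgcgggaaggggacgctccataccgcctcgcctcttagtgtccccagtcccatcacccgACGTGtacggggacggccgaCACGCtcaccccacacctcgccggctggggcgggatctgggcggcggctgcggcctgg
The pair of CACGT matches nearest the PDK1 start, at -15 and -6 bp, lay in the ZMYND8 peak and between the FLAG-ZMYND8 peaks.

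BNIP3 encodes a mitochondrial outer membrane protein that promotes mitophagy (ENSG00000176171.12, chr10:133781188-133795471, minus strand). It had no peak of either list at its start. The nearest ZMYND8 peak, of 193 bp, lay at -19433 bp, just inside the 20 kb window, and a minimum-width FLAG-ZMYND8 peak lay inside the gene at +11552 bp. Its promoter had the highest GC content of the 10, 80.7%, and 5 HRE cores, more than any other of the 10 promoters. The 5 cores are centred between -141 and -102 bp, and the stretch printed is chr10:133795472-133795677, minus strand, from 250 to 45 bp before the start.
BNIP3 before the start: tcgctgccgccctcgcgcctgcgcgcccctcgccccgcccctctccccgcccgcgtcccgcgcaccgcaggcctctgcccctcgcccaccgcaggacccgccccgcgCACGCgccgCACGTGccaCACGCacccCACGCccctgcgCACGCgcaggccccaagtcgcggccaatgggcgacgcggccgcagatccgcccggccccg

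CA9 encodes carbonic anhydrase IX, a cell surface enzyme that acidifies the outside of oxygen-starved cells (ENSG00000107159.14, chr9:35673925-35681156, plus strand). It had no peak of either list at its start or in its body. The 5 peaks within 20 kb of its start were each nearest to the start of another gene. ZMYND8 had 1 of 151 bp at +14571 bp in TPM2. FLAG-ZMYND8 had 4, of 428 bp near RMRP, 374 bp near CCDC107, 213 bp near ARHGEF39 and 167 bp near TPM2. The CA9 promoter held a single HRE core, printed with 12 bases on each side (chr9:35673895-35673923, plus strand).
CA9 core at -16 bp: tcgtttccaatgCACGTacagcccgtaca

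VEGFA encodes the main growth factor for blood vessels (ENSG00000112715.26, chr6:43737921-43754224, plus strand). Within 3 kb of the canonical start it had the most bases covered by FLAG-ZMYND8 of the 10 genes, and it had no ZMYND8 peak within 20 kb, the nearest of which lay 46021 bp upstream. FLAG-ZMYND8 peaks of 744 bp at -178 bp (chr6:43737399-43738142), 757 bp at +1782 bp (chr6:43739352-43740108), 1680 bp at +3318 bp (chr6:43740427-43742106) and 779 bp at +4855 bp (chr6:43742414-43743192) followed each other from the promoter into the gene. The third was the 218th widest of the list. Its midpoint lay just outside the 3 kb limit, as did that of the EGLN3 peak at +3208 bp, whereas the VEGFA peak at +1782 bp was the farthest inside it. Minimum-width peaks lay at -10605, +8947, +9287 and +16560 bp, making 8 FLAG-ZMYND8 peaks within 20 kb. A noncoding gene starts 405 bp downstream of the VEGFA start. Its start was the nearest to each of these peaks from +1782 to +16560 bp. In the 3 kb window 2023 bp were covered, and 1.51% of all coding genes had as much. A stretch of the first of these peaks is shown (chr6:43737621-43737920, plus strand), from 327 to 28 bp before the start, with 3 HRE cores.
VEGFA FLAG-ZMYND8 peak: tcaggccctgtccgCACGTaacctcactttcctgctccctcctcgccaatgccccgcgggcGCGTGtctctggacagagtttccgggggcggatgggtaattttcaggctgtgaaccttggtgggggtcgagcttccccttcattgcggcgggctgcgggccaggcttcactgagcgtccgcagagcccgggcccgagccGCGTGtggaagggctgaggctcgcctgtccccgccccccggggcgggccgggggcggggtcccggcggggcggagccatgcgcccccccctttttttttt

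**Figure D3:**
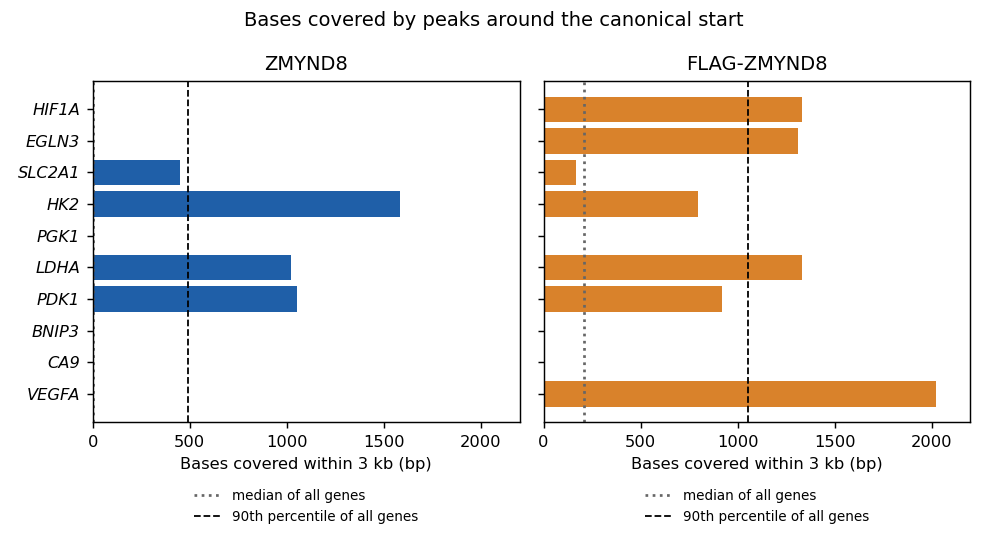
Bars give the bases covered by ZMYND8 (left) and FLAG-ZMYND8 peaks (right) within 3 kb of the canonical start of each gene (x axis, bp), with the median (dotted) and the 90th percentile (dashed) over all coding genes. HK2, PDK1 and LDHA exceed the ZMYND8 percentile of 490 bp, and VEGFA, HIF1A, LDHA and EGLN3 the FLAG-ZMYND8 percentile of 1054.3 bp.

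Many of the peaks at these starts were wide, but the ZMYND8 peaks of SLC2A1 were only 200 and 251 bp. The 5 ZMYND8 peaks within 3 kb of a canonical start were 200 to 1583 bp wide with a median of 1024 bp, against a median of 226 bp over the list's 6831 peaks at coding starts, of which 35.9% had the minimum width. A ZMYND8 peak of at least 1000 bp stood at 3 of 10 starts (3.31% of all coding genes), those of HK2, LDHA and PDK1. The 11 FLAG-ZMYND8 peaks were 167 to 1330 bp wide with a median of 564 bp, against 231 bp over 20601 peaks, and 3 of 10 starts, those of HIF1A, EGLN3 and LDHA, had a peak of at least 1000 bp (3.99%). Only LDHA was in both sets. Of the 48 other pathway genes, 2 had a ZMYND8 and 11 a FLAG-ZMYND8 peak of at least 1000 bp at the canonical start. The shares over all coding genes were not matched for GC content. With 5 and 11 peaks from 4 and 7 genes, these widths are given as a description.

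The median number of bases covered differed between the ways of placing the start. From the 5′ ends of the genes it was 75.5 bp for ZMYND8 and 523 bp for FLAG-ZMYND8, against 0 and 167 bp over all coding genes. From the canonical starts it was 0 and 857.5 bp, against 0 and 209 bp. EGLN3 made this difference for both lists: its covered bases changed from 151 to 0 in the ZMYND8 list, while in the other list they changed from 252 to 1310. At the canonical starts of these genes, 4 of 5 ZMYND8 and 8 of 11 FLAG-ZMYND8 midpoints lay on the downstream side. The side was not counted for peaks at other coding starts, so no comparison is drawn. The start base itself was inside a ZMYND8 peak at 3 of 10 genes (10.5% of all coding genes) and inside a FLAG-ZMYND8 peak at 5 of 10 (13.9%). Among the 48 other pathway genes it was inside such peaks at 7 and 15. The shares over all coding genes were not matched for GC content here either.

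**Figure D4:**
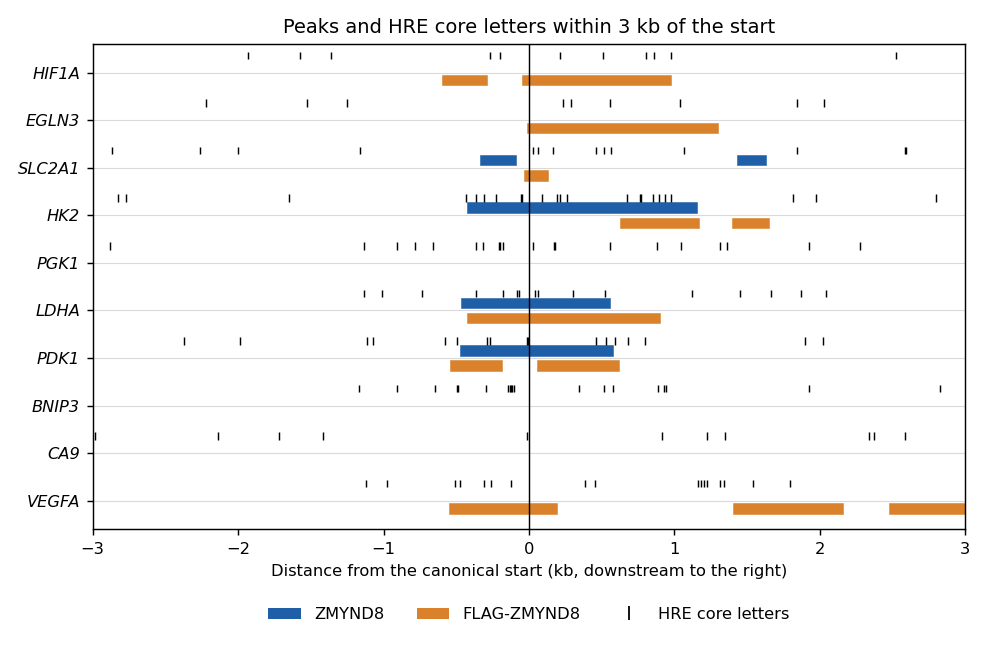
The same peaks within 3 kb of the canonical start (x axis, kb, downstream to the right), with a tick for every HRE core on either strand above each gene's row. Cores lie in both lists' peaks at HK2, LDHA and PDK1, while the 20 cores of PGK1, the 19 of BNIP3 and the 11 of CA9 lie outside any peak.

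HRE cores were searched as the letters ACGTG and GCGTG on both strands, and overlapping matches, such as the strands of CACGTG, were counted as 1. At the canonical starts 9 of 10 promoters of 300 bases held a core, all but that of EGLN3, as did 56.4% of all coding genes, and 6 of 10 held ACGTG (23.2%). From the 5′ ends the counts were 7 (53.5%) and 5 (22.8%). These shares over all coding genes were not matched for GC content. At the canonical starts all 10 promoters lay at or above 60% GC, and the part of GC content in the core counts was not tested. Within 3 kb of the canonical starts there were 157 cores, of which 30 lay in ZMYND8 peaks, 38 in FLAG-ZMYND8 peaks and 49 in either. HK2 had 16 of 23 in a peak, LDHA 8 of 16, PDK1 8 of 17, VEGFA 7 of 17, and PGK1 0 of 20. Peaks of either list covered 1850, 1371, 1160 and 2023 of the 6001 bp at HK2, LDHA, PDK1 and VEGFA. The share of cores in peaks was not counted at other coding genes, nor matched for GC content. These counts are therefore a description and show no link between peaks and cores. The central 151 bp of a peak held a core in 40.3% of the peaks at coding starts in the ZMYND8 list and 37.5% in the other, and in 2 of 5 and 6 of 11 peaks at these genes. A match to these letters is not a bound HIF site, and HIF binding was not measured.

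Peaks were also counted over whole gene bodies, the first 3 kb included. Of the 10 canonical transcripts, 4 had a ZMYND8 peak inside (32.0% of all coding genes), with 5 peaks in all, and 8 had a FLAG-ZMYND8 peak (61.2%), with 26. Densities are summed peaks over summed length and were not matched for gene length. They came to 0.166 ZMYND8 and 0.862 FLAG-ZMYND8 peaks per 10 kb, against 0.0732 and 0.329 over all coding genes. These counts include the peaks at the starts: 4 of the 5 and 8 of the 26 were centred within 3 kb of the canonical start, which left 1 ZMYND8 peak, that of SLC2A1, and 18 FLAG-ZMYND8 peaks farther inside. Over the whole annotated genes, including the long transcripts of EGLN3 and PGK1, ZMYND8 peaks lay in 5 genes (37.5%) and FLAG-ZMYND8 peaks in 8 (64.8%), with 9 and 39 peaks, and the densities were 0.0893 against 0.0781 and 0.387 against 0.336. Within 20 kb of the canonical starts, ZMYND8 peaks lay near 6 genes (50.9%) and FLAG-ZMYND8 peaks near 9 (74.7%), all but PGK1. These windows held 9 ZMYND8 peaks, of which 4 overlapped a FLAG-ZMYND8 peak, and 32 FLAG-ZMYND8 peaks, of which 5 overlapped a ZMYND8 peak. Over the whole lists, 40.0% of ZMYND8 and 10.7% of FLAG-ZMYND8 peaks overlapped the other list, and the counts here lay near those shares. The nearest coding start was that of the hypoxia response gene for 7 of the 9 and 26 of the 32.

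The other genes of the pathway, 48 chosen for their known roles, were placed in the same way at their 5′ ends. ZMYND8 peaks stood at 21 of 48 (43.8%, against 34.1% of all coding genes) and FLAG-ZMYND8 peaks at 38 of 48 (79.2%, against 58.1%). Peaks of both lists stood at 20 (29.4%). Among coding genes at or above 60% GC around the 5′ end, 44.2% had a ZMYND8 and 74.2% a FLAG-ZMYND8 peak. Of the 48 genes, 31 lay at or above 60% GC, and 15 and 27 of these had such peaks. From the canonical starts the counts were 22 (35.2% of all coding genes) and 40 (59.6%) of 48. All these counts are given as a description. By role, ZMYND8 and FLAG-ZMYND8 peaks stood at 3 and 3 of 4 HIF subunits, 2 and 4 of 4 genes of oxygen sensing and HIF degradation, 8 and 11 of 14 genes of glucose uptake and glycolysis, 2 and 4 of 5 mitochondrial genes, 2 and 4 of 4 matrix genes, 3 and 6 of 7 genes of signalling and stress, and 1 and 2 of 3 histone demethylases. The 7 genes of pH control, vessels and blood had no ZMYND8 peak. Of these, 4 had FLAG-ZMYND8 alone, as VEGFA did, and 3 had neither, as CA9 did. FLAG-ZMYND8 alone stood at 18 of the 48 genes and at 28.7% of all coding genes, so it was not particular to this role. HIF3A alone had a ZMYND8 peak without a FLAG-ZMYND8 peak. A peak of neither list was found at 9 of the 48, against 37.2% of all coding genes. From the canonical starts it was 7 of 48, against 35.6%. There, ZMYND8 and FLAG-ZMYND8 peaks stood at 4 and 3 HIF subunits and at 1 and 3 genes of oxygen sensing and HIF degradation. They stood at 8 and 12 genes of glucose uptake and glycolysis, 4 and 7 of signalling and stress, and 1 and 3 histone demethylases. The counts of the other roles did not change.

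From the 5′ ends, the other pathway genes with most bases covered by ZMYND8 were ENO1, the glycolytic enzyme enolase 1, with 2852 bp, the transcriptional repressor BHLHE40 with 1540 bp, PFKFB3, which makes the activator of phosphofructokinase, with 996 bp, the collagen prolyl hydroxylase P4HA2 with 983 bp, the aldolase ALDOA with 932 bp and the HIF partner ARNT2 with 714 bp. From the canonical starts the values of PFKFB3 and P4HA2 were 541 and 269 bp, those of the other 4 did not change, and EPAS1, the HIF-2 alpha subunit, had 788 bp where it had 0 from its 5′ end, more than ARNT2, so that EPAS1 and the collagen lysyl hydroxylase PLOD2, with 667 bp, stood among the 6 in place of PFKFB3 and P4HA2. HK2, with 1583 bp, stood between ENO1 and BHLHE40, and PDK1 and LDHA between BHLHE40 and PFKFB3. For FLAG-ZMYND8 they were DDIT4, an inhibitor of mTORC1 signalling, with 5455 bp, the glycoprotein hormone STC2 with 3943 bp, the vasodilator peptide ADM with 3473 bp, BHLHE40 with 3322 bp, the glycolytic enzyme GAPDH with 3199 bp and ENO1 with 2981 bp, all above VEGFA at 1996 bp from its 5′ end. DDIT4, STC2 and ADM had no bases covered by ZMYND8, as at VEGFA, whereas ENO1 and BHLHE40 were high in both lists. The DDIT4 peak, of 5751 bp, was the widest of the whole FLAG-ZMYND8 list.

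**Figure D5:**
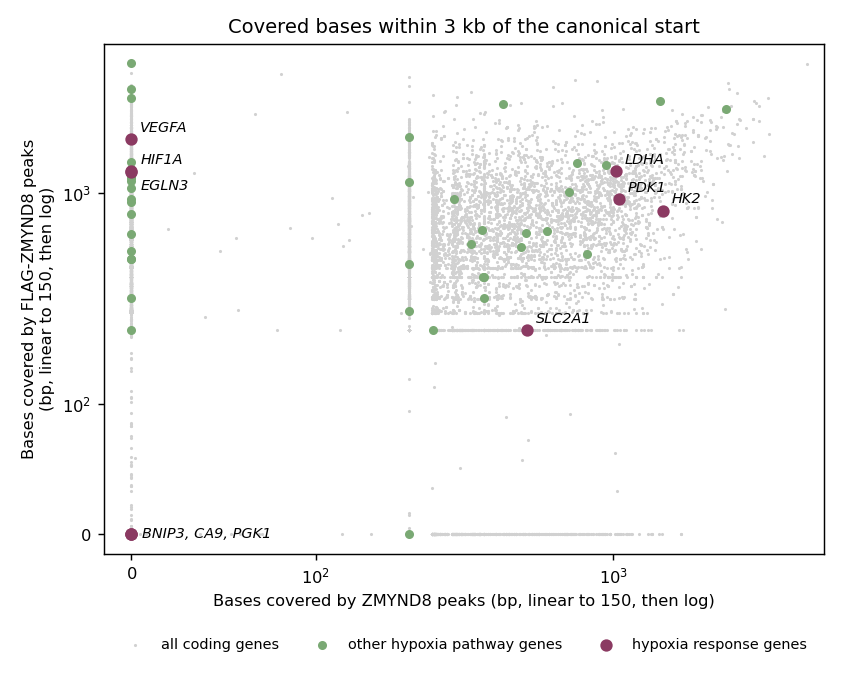
Each point is a gene, placed by the bases covered by ZMYND8 (x axis, bp) and FLAG-ZMYND8 peaks (y axis, bp) within 3 kb of its canonical start, on axes that are linear to 150 bp and logarithmic above. LDHA, PDK1 and HK2 lie above the median of all coding genes on both axes. Of these, only LDHA exceeds the FLAG-ZMYND8 90th percentile of 1054.3 bp. VEGFA, HIF1A and EGLN3 lie at 0 on the ZMYND8 axis, and BNIP3, CA9 and PGK1 lie at 0 on both.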

How the data were processed

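The authors aligned the reads to hg19 with BWA-MEM with up to 2 mismatches and made profiles with HOMER, according to the methods and the submitters' processing notes, which name BWA 0.7. Peak-calling settings and how samples were combined are not given in the sources used here. The 2 deposited lists hold peak positions in hg19 and a score column, which the authors deposited as 1 in every row. Histone and input samples were not used here. Starts came from GENCODE release 44 on GRCh37 (64486 genes), and sequences from GRCh37, the same build. Peaks were placed by midpoint within 3 kb, bases covered were counted in that window, and overlap meant at least 1 bp. The 10 genes and the 48 other genes were chosen with earlier results of these data known, so counts stand beside all 20098 coding genes without a test. All 10 genes are named, and of the others the 6 with most covered bases per list. Canonical starts were added after the data were seen. The placing functions were tested on simulated lists, and 12 of 12 were recovered. Analyses used Python 3.11.15, pandas 2.3.3, numpy 2.4.6 and pysam 0.24.0.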

Additional observations from a re-analysis of the deposited data

How the results depend on the processing

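With 1 list per target and no read counts, neither a replicate error nor a depth could be given, and no sample could be left out. No paired analysis was possible because each target's peaks come as a single list with no replicate named. Of 70 combinations of 13 results with an alternative, 52 stayed within 1.5 times the value given and 18 moved further. With a window of 500 bp, 3 of the 10 genes had a ZMYND8 peak (21.5% of all coding genes). In that window 2 genes had both (14.5%) and 2 had overlapping peaks (13.1%). Of the other pathway genes, 11 had a ZMYND8 and 24 a FLAG-ZMYND8 peak there (21.5% and 37.6% of all coding genes). With only peaks wider than the minimum, 3 genes had both (18.2% of all coding genes) and the ZMYND8 median was 0 bp, as over all coding genes. FLAG-ZMYND8 then had 19 peaks in the gene bodies and 19 within 20 kb. A reciprocal overlap of 50% left 2 genes with overlapping peaks (8.37% of all coding genes). A 1 kb window gave a FLAG-ZMYND8 median of 287 bp, against 81 bp over all coding genes. The canonical start, added after the data were seen, gave medians of 0 bp for ZMYND8 and 857.5 bp for FLAG-ZMYND8 and left 5 ZMYND8 peaks in the bodies. Of the 9 ZMYND8 peaks in the whole annotated genes, 4 lay beyond 3 kb from the gene's 5′ end. The gene with 20 kb on either side held 56 FLAG-ZMYND8 peaks. Of the peaks within 20 kb of the 5′ ends, 3 ZMYND8 and 8 FLAG-ZMYND8 peaks had the gene's own start as the nearest of any annotated gene.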
